A study of Komagataella phaffii GS115 with 9 samples.

Results

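The genes described here are the 50 rows of the expression table whose locus tags run from PP7435_CHR3-1190 to PP7435_CHR3-1245, the high-numbered end of the densely numbered tags of *P. pastoris* chromosome 3. They are 50 of the 5557 features in the table. The tags CHR3-1190 to CHR3-1238 are consecutive and CHR3-1242 is the last of them, while 6 of the 56 numbers in the range have no row. The stretch was chosen with the difference between the robust mutant and its WT in view, so values of that difference are given as a description and carry no test. The order of the tags was not checked against genome coordinates. The files do not pair these tags with gene names, and 0 of the 50 matched the reference gene table, which covers strain GS115. Each gene is therefore called by its tag, and no function is given to any of them.

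RNA was sequenced from flask fermentations in BMGY/BMMY medium after 60 h, with 3 libraries in each of 3 groups. WT_Met is the parent induced at 28 °C, Mut_Met is the robust mutant induced at 28 °C, and Mut_Met_37C is the same mutant induced at 37 °C. The labels describe the mutant as cross-tolerant to oxidative and thermal stress, and it is a single strain that was evolved in the laboratory from this parent. All groups carried a recombinant lipase gene (*RCL*) under the methanol-inducible *AOX1* promoter, with methanol as inducer and sole carbon source. The parent at 37 °C is not among the samples, so every value at 37 °C comes from the mutant alone.

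*P. pastoris* is a methylotrophic yeast that grows on methanol and is used to produce foreign proteins. In yeasts, the regions next to the telomeres are known, mainly from *Saccharomyces cerevisiae*, for silencing of nearby genes by telomere-bound proteins. In that species they also hold gene families that differ between strains and respond to nutrients or stress. Whether the tags described here lie in such a region was not analysed here.

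The values were taken as FPKM, reads scaled by gene length and library size, a unit inferred from the values themselves. On that reading, levels of different genes can be compared per length. Whole reads were recovered from the values and came to between 13131111 and 15945465 per library. Of the 50 genes, 43 had at least 100 reads in every library and 3 had fewer than 20 in at least 1 library. The first Mut_Met_37C library stood apart from the other 2 of its group, with chi-square values over all genes of 48.5 and 49.8 per degree of freedom, against 3.84 to 8.55 for the other pairs of replicates. Without it, 11 genes of the stretch were still called in each of the comparisons with Mut_Met_37C. The deposited scaling also differs at 37 °C, where the library size used was 1.15 to 1.23 times the recovered reads, against 0.874 to 0.925 times in the other groups. Scaling to the summed reads instead would shift the median over all genes by 0.39 on the log2 scale against Mut_Met and by 0.44 against WT_Met, but only by 0.050 between the strains. Where a direction given here turns under that scaling, it is said beside it.

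In WT_Met the median level of the stretch was near that of all features, and in both mutant groups it was lower. The median over the 50 genes was 69.7 FPKM in WT_Met, 44.2 in Mut_Met and 56.4 in Mut_Met_37C, while the median over all features was 66.8, 66.8 and 66.3 FPKM. Gene lengths, as recovered from the values, had a median of 1200 bases in the stretch, against 1143 bases over all features. In the stretch they ranged from 72 to 9870 bases. CHR3-1213 had the highest mean in every group, followed by CHR3-1205. The levels of these 2 genes did not overlap in WT_Met or Mut_Met, but they did in Mut_Met_37C, where CHR3-1213 had 458 to 634 FPKM and CHR3-1205 had 333 to 491. In WT_Met the next genes in order were CHR3-1234, CHR3-1226 and CHR3-1208, and their libraries overlapped. In Mut_Met the next were CHR3-1215 and CHR3-1214, whose libraries overlapped each other and those of CHR3-1205. CHR3-1213 alone held 22.4 to 24.9% of the summed FPKM of the stretch in WT_Met, 50.1 to 51.6% in Mut_Met and 11.0 to 15.7% in Mut_Met_37C. The sum of the other 49 genes was 5499 to 5509 FPKM in WT_Met, 4857 to 5164 in Mut_Met and 3411 to 3701 in Mut_Met_37C.

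The first question was how the genes differed between the strains at 28 °C. A gene was called where the adjusted p from limma was under 0.05 and the log2 fold change exceeded 1 in size. Between Mut_Met and WT_Met, 14 of the 49 genes tested met these criteria (28.6%), and 3.58% of all tested genes did, 1.76% higher and 1.82% lower. Because this difference chose the stretch, nothing is read from that share. Of the 14, CHR3-1212, CHR3-1213, CHR3-1214 and CHR3-1215 were higher in Mut_Met and the other 10 were lower, and the groups did not overlap in 41 of the 49 genes (83.7%, against 71.3% of all genes). Over the 49 genes tested, the median log2 fold change was -0.20, against -0.037 over all genes, and the median of its absolute value was 0.63, against 0.26. From CHR3-1203 to CHR3-1234, the differences came in runs of a single sign. CHR3-1203 and CHR3-1205 to CHR3-1208 were lower in Mut_Met, with log2 fold changes of -1.16 to -0.28, while CHR3-1204 between them had too few reads to compare. The 13 genes from CHR3-1209 to CHR3-1221 were all higher, with a median of 0.72, and the 13 from CHR3-1222 to CHR3-1234 were all lower, with a median of -0.79. The smallest differences in these runs were 0.02 and -0.23. A limma adjusted p under 0.05 was reached by 11 and 12 of the 13 genes, and by 66.3% of all tested genes. Over the densely numbered tags of all chromosomes, 8 of 2175 runs were at least 13 genes long, both of these included. Nothing is read from these counts or from the length of the runs, since this difference chose the stretch. The 13 genes from CHR3-1190 to CHR3-1202 showed no such pattern, with a median of 0.07, a range of -0.86 to 0.45 and none called. Of them, 3 higher and 3 lower genes had a limma adjusted p under 0.05, which is again a description.

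**Figure D1:**
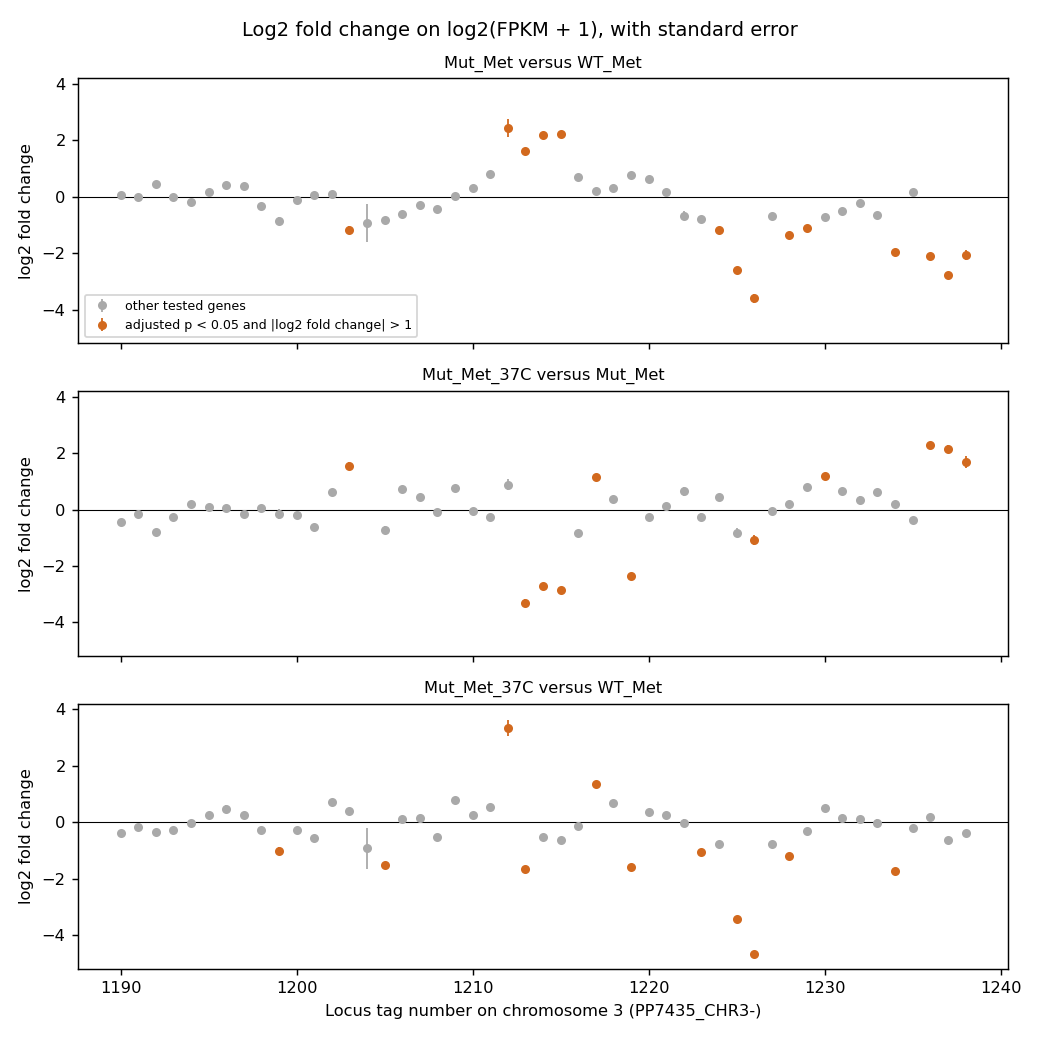
Log2 fold change on log2(FPKM + 1) with its standard error, against locus tag number, for the 3 comparisons. Genes called by limma are in orange, and the top panel shows the difference that chose the stretch. Under scaling to summed reads, 2 genes change sign in the top panel, 12 in the middle and 13 in the bottom one, none of them called.

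The genes at the limits of the range were as follows. CHR3-1190, the first gene, had 128 ± 4.61 FPKM (SD, n = 3) in WT_Met and 134 ± 3.70 in Mut_Met, a log2 fold change of 0.07. CHR3-1189, just before it, had 990.4 ± 11.9 and 1539 ± 40.8 FPKM, a log2 fold change of 0.63, and at 37 °C it had 389 ± 9.47 FPKM, a log2 fold change of -1.98 against Mut_Met and -1.35 against WT_Met. At the far end, CHR3-1242 had at most 7 reads in any library and was not tested, and CHR3-1248, the next tag with a row, had 44.3 ± 4.46 FPKM in WT_Met and 51.9 ± 3.28 in Mut_Met, a log2 fold change of 0.23.

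CHR3-1213, CHR3-1214 and CHR3-1215, of 1764, 1620 and 1626 bases, are neighbouring tags that were high in Mut_Met and low at 37 °C. CHR3-1213 had 1591, 1651 and 1820 FPKM in the WT_Met libraries, 5469, 5303 and 4878 in Mut_Met, and 458, 509 and 634 in Mut_Met_37C. No library of any group overlapped another group. The mean was 1687 ± 118 FPKM in WT_Met, 5217 ± 305 in Mut_Met and 534 ± 90.4 in Mut_Met_37C (SD, n = 3 each). Its log2 fold change between the strains was 1.63 (standard error, SE, 0.065). From 28 to 37 °C within the mutant it fell, with a log2 fold change of -3.30 (SE 0.12, limma adjusted p = 2.6e-07), to a level below that of WT_Met (-1.67, SE 0.12, limma adjusted p = 5.9e-06).

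The other two genes had nearly equal levels in each library. CHR3-1214 had 121, 117 and 124 FPKM in WT_Met, 587, 541 and 534 in Mut_Met, and 78.2, 79.1 and 92.8 in Mut_Met_37C. CHR3-1215 had 121, 127 and 132 FPKM in WT_Met, 621, 587 and 579 in Mut_Met, and 79.9, 77.4 and 89.3 in Mut_Met_37C. For both genes the 3 groups were apart, with Mut_Met on top. The ratio of CHR3-1215 to CHR3-1214 lay between 0.962 and 1.09 in all 9 libraries. The ratio of CHR3-1213 to CHR3-1214, in contrast, was 13.2 to 14.6 in WT_Met, 9.14 to 9.81 in Mut_Met and 5.86 to 6.83 in Mut_Met_37C. The strain difference of CHR3-1214 was 2.19 on the log2 scale (SE 0.049) and that of CHR3-1215 was 2.22 (SE 0.047). At 37 °C both genes fell, by a log2 fold change of -2.72 (SE 0.079, limma adjusted p = 1.1e-07) for CHR3-1214 and -2.84 (SE 0.068, limma adjusted p = 4.9e-08) for CHR3-1215. Against WT_Met they were lower at 37 °C, at -0.53 and -0.62 (SE 0.073 and 0.067, limma adjusted p = 2.5e-04 and 5.7e-05), and under summed-read scaling these differences were -0.09 and -0.18.

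CHR3-1212, a short gene of 117 bases directly before this group, did not share its pattern at 37 °C. It had 4, 2 and 1 reads in the WT_Met libraries, 20, 22 and 13 in Mut_Met, and 59, 41 and 50 in Mut_Met_37C. These counts correspond to 1.64 ± 1.05, 12.9 ± 3.45 and 24.3 ± 3.54 FPKM (SD, n = 3 each), and no groups overlapped. The strain difference was 2.45 (SE 0.31) on log2(FPKM + 1), a scale that understates differences of genes this low. From 28 to 37 °C its log2 fold change was 0.88 (SE 0.19, limma adjusted p = 0.00322), below the fold required for a call, and it was 1.26 with summed-read scaling and 1.04 without the second Mut_Met library. Against WT_Met, the mutant at 37 °C was higher by 3.33 (SE 0.28, limma adjusted p = 1.3e-05). Whether its reads overlap a neighbouring gene was not analysed here.

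The rest of the run from CHR3-1209 to CHR3-1221 differed less between the strains, with log2 fold changes of 0.02 to 0.80. Between the temperatures 2 of its genes were called, beside 11.0% of all tested genes. CHR3-1219 had 185, 183 and 183 FPKM in WT_Met, 326, 312 and 307 in Mut_Met, and 64.0, 61.2 and 57.6 in Mut_Met_37C. Its groups were apart, in the same order as those of CHR3-1213 to CHR3-1215. It fell at 37 °C by a log2 fold change of -2.35 (SE 0.058, limma adjusted p = 5.9e-08) and was lower than in WT_Met by -1.58 (SE 0.054, limma adjusted p = 1.3e-07). CHR3-1217 went the other way. Its libraries had 32.1, 38.4 and 38.2 FPKM in WT_Met, 42.3, 38.4 and 44.0 in Mut_Met, and 82.4, 98.9 and 99.5 in Mut_Met_37C, so that the strains at 28 °C met at 38.4 FPKM and the libraries at 37 °C were all above them. It rose from 28 to 37 °C by 1.15 (SE 0.087, limma adjusted p = 9.2e-06) and was higher than in WT_Met by 1.34 (SE 0.096, limma adjusted p = 5.6e-06). Of all 13 genes of this run, 5 were higher and 8 lower at 37 °C than in Mut_Met, and 3 of the 8 (CHR3-1210, CHR3-1211 and CHR3-1220, named for this reason after their values were seen) turned higher under summed-read scaling.

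**Figure D2:**
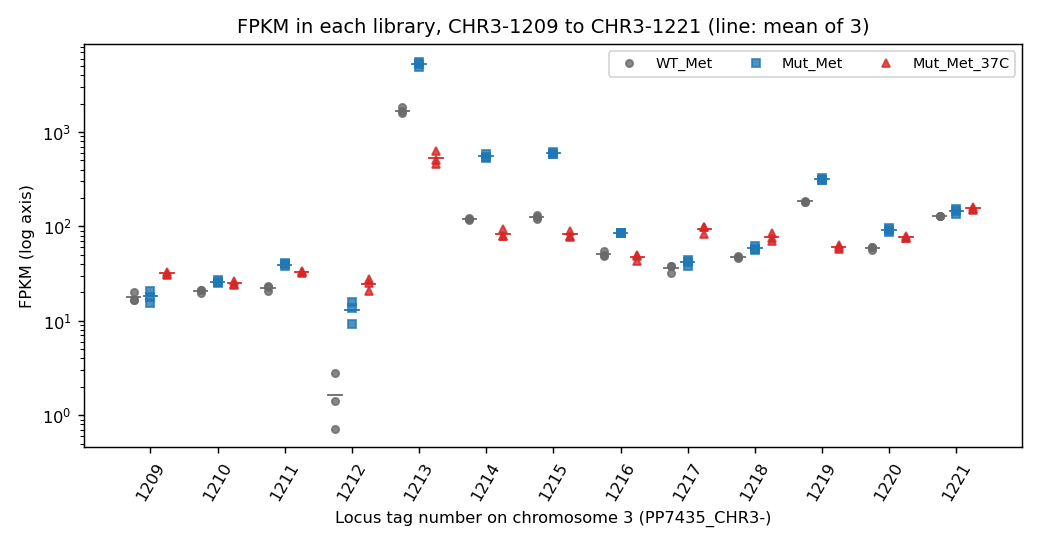
FPKM in each library on a log axis for the 13 genes from CHR3-1209 to CHR3-1221, with a line at the mean of each group. Among the genes of this run called in a comparison, Mut_Met is the highest group for CHR3-1213, CHR3-1214, CHR3-1215 and CHR3-1219 and Mut_Met_37C the lowest. CHR3-1212 and CHR3-1217 are highest in Mut_Met_37C. Some genes that were not called have their means in the same orders.

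Beyond CHR3-1221, 16 of the 17 genes up to CHR3-1238 were lower in Mut_Met than in WT_Met. Of them, 9 were among those called lower, beside 1.82% of all tested genes. At 37 °C, 12 of the 17 were higher and 5 lower than in Mut_Met. Here 4 were called higher and 1 lower, beside 3.96% and 7.05% of all tested genes. Because the strain difference chose the stretch and this comparison reuses the Mut_Met libraries, these counts are a description. Under summed-read scaling, 3 of the lower ones turned higher (CHR3-1223, CHR3-1227 and CHR3-1235). Of these, CHR3-1227 and CHR3-1235 were named after their values were seen. CHR3-1225 and CHR3-1226, of 705 and 1422 bases, were low in both mutant groups. CHR3-1226 had 328, 321 and 398 FPKM in WT_Met, 32.2, 20.4 and 32.3 in Mut_Met, and 14.7, 12.0 and 11.0 in Mut_Met_37C. CHR3-1225 had 138, 142 and 149.8 FPKM in WT_Met, 27.0, 18.6 and 23.2 in Mut_Met, and 12.4, 10.4 and 14.4 in Mut_Met_37C. For both, all WT_Met libraries lay far above, and the libraries at 37 °C were the lowest. The strain difference was -3.60 (SE 0.16) for CHR3-1226, the most negative of all tested genes, and -2.60 (SE 0.11) for CHR3-1225. At 37 °C they stood at -4.69 and -3.44 against WT_Met (SE 0.12 and 0.10, limma adjusted p = 3.7e-08 and 8.9e-08). The ratio of CHR3-1226 to CHR3-1225 was 2.26 to 2.66 in WT_Met, 1.10 to 1.39 in Mut_Met and 0.761 to 1.18 in Mut_Met_37C.

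Between the mutant groups the decline of this pair was smaller. CHR3-1226 had a log2 fold change of -1.09 from 28 to 37 °C (SE 0.18, limma adjusted p = 8.3e-04) and CHR3-1225 one of -0.83 (SE 0.16, limma adjusted p = 0.00155), which is below the fold required. The call of CHR3-1226 ended without the first Mut_Met library (-0.99), without the third one (-0.98) and with summed-read scaling (-0.72).

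CHR3-1236, CHR3-1237 and CHR3-1238, of 1131, 945 and 6296 bases, formed a contrast to that pair, since they were low in Mut_Met only. CHR3-1236 had 28.5, 26.7 and 27.0 FPKM in WT_Met, 5.28, 4.93 and 6.69 in Mut_Met, and 27.4, 34.7 and 31.3 in Mut_Met_37C. CHR3-1237 had 54.1, 46.2 and 47.4 FPKM in WT_Met, 6.57, 5.72 and 6.79 in Mut_Met, and 31.8, 36.0 and 28.0 in Mut_Met_37C. CHR3-1238 had 9.90, 11.0 and 10.5 FPKM in WT_Met, 1.37, 1.86 and 2.01 in Mut_Met, and 8.17, 8.33 and 7.13 in Mut_Met_37C. Every Mut_Met library lay below every other library for all 3 genes, and the libraries at 37 °C overlapped those of WT_Met for CHR3-1236 only. The strain differences were -2.11 (SE 0.11), -2.77 (SE 0.092) and -2.07 (SE 0.18), in this order.

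All 3 genes rose in the mutant from 28 to 37 °C. The log2 fold change was 2.28 for CHR3-1236 (SE 0.13, limma adjusted p = 2.3e-06), 2.16 for CHR3-1237 (SE 0.12, limma adjusted p = 1.5e-06) and 1.70 for CHR3-1238 (SE 0.21, limma adjusted p = 1.4e-04). With a pseudocount of 0.1 these rises were 2.45, 2.30 and 2.12. Against WT_Met at 28 °C, CHR3-1236 differed by 0.17 with a 95% interval of -0.03 to 0.38 (limma adjusted p = 0.109). Across the settings tried, summed-read scaling included, this value ran from 0.09 to 0.61. CHR3-1237 remained lower at -0.62 (SE 0.099, limma adjusted p = 6.3e-04), but across the same settings its value ran from -0.70 to -0.18. CHR3-1238 was lower by -0.37 (SE 0.11, limma adjusted p = 0.0185), a direction that turned to 0.03 with summed-read scaling.

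**Figure D3:**
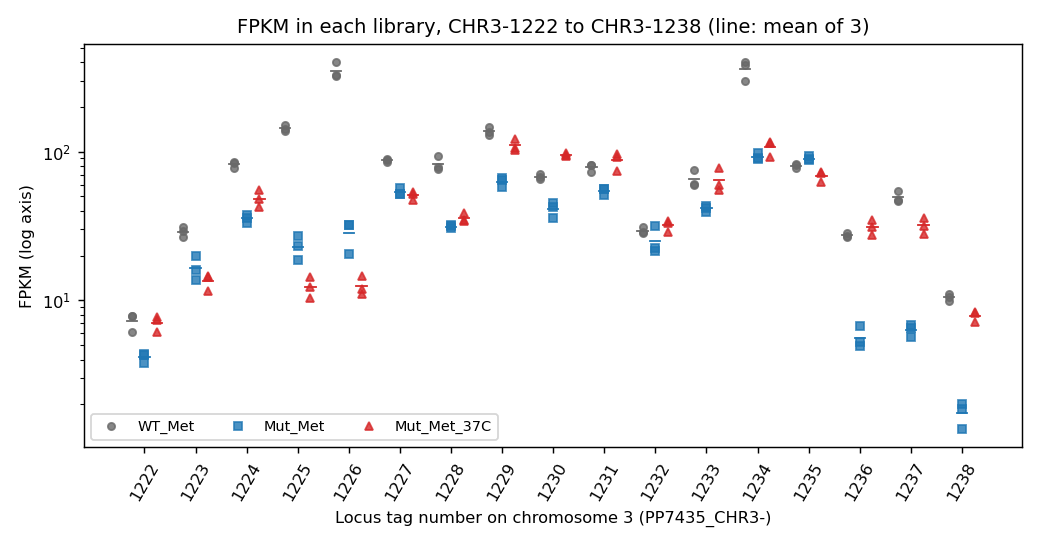
FPKM in each library on a log axis for the 17 genes from CHR3-1222 to CHR3-1238, with a line at the mean of each group. CHR3-1225 and CHR3-1226 are low in both mutant groups, while CHR3-1236, CHR3-1237 and CHR3-1238 are low in Mut_Met and near or somewhat below WT_Met in Mut_Met_37C.

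Other genes called lower between the strains lay between these extremes. CHR3-1234 had 398, 383 and 299 FPKM in WT_Met, 90.0, 97.1 and 89.6 in Mut_Met, and 114, 116 and 91.5 in Mut_Met_37C. CHR3-1228 had 93.7, 76.2 and 79.3 FPKM in WT_Met, 32.0, 31.6 and 30.5 in Mut_Met, and 38.8, 34.5 and 34.0 in Mut_Met_37C. Both genes stayed well under WT_Met at either temperature. Their log2 fold changes between the strains were -1.94 (SE 0.098) for CHR3-1234 and -1.37 (SE 0.076) for CHR3-1228, and against WT_Met at 37 °C they were -1.74 (SE 0.13, limma adjusted p = 6.4e-06) and -1.19 (SE 0.088, limma adjusted p = 6.9e-06). With summed-read scaling the latter became -0.75 and was no longer called. From 28 to 37 °C the difference was 0.20 for CHR3-1234 (95% interval -0.01 to 0.42, limma adjusted p = 0.0773) and 0.18 for CHR3-1228 (0.02 to 0.34, limma adjusted p = 0.0432).

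CHR3-1224 and CHR3-1229 were lower in the mutant and partly higher again at 37 °C. CHR3-1224 had 78.1, 84.9 and 83.9 FPKM in WT_Met, 37.7, 33.3 and 35.6 in Mut_Met, and 54.8, 47.8 and 42.4 in Mut_Met_37C. CHR3-1229 had 135, 147 and 129 FPKM in WT_Met, 57.9, 64.9 and 66.0 in Mut_Met, and 121, 103 and 106 in Mut_Met_37C. In both genes the libraries at 37 °C lay between the other groups without overlap. The strain differences were -1.19 (SE 0.059) and -1.11 (SE 0.067), and the log2 fold changes from 28 to 37 °C were 0.43 and 0.80 (SE 0.096 and 0.079, limma adjusted p = 0.00388 and 4.2e-05), under the fold for a call. For CHR3-1229 the difference from WT_Met at 37 °C was -0.31 and became 0.13 with summed-read scaling.

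CHR3-1203 and CHR3-1230 exceeded WT_Met at 37 °C after being lower in Mut_Met. CHR3-1203 had 14.9, 16.0 and 16.1 FPKM in WT_Met, 5.18, 6.87 and 7.48 in Mut_Met, and 21.9, 21.7 and 19.3 in Mut_Met_37C. CHR3-1230 had 67.1, 70.2 and 65.1 FPKM in WT_Met, 42.3, 44.9 and 35.8 in Mut_Met, and 93.0, 97.5 and 95.5 in Mut_Met_37C. No groups overlapped in either gene. The strain differences were -1.16 (SE 0.13) for CHR3-1203 and -0.71 (SE 0.080) for CHR3-1230. They rose in the mutant from 28 to 37 °C by 1.56 for CHR3-1203 (SE 0.14, limma adjusted p = 2.0e-05) and by 1.20 for CHR3-1230 (SE 0.083, limma adjusted p = 5.4e-06). Against WT_Met they were higher by 0.40 and 0.49 (SE 0.081 and 0.051, limma adjusted p = 0.00223 and 4.5e-05).

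CHR3-1199, CHR3-1205 and CHR3-1223 were called only in the comparison of Mut_Met_37C with WT_Met, though their levels were lower in both mutant groups. CHR3-1205 had 1095, 1130 and 1149 FPKM in WT_Met, 713, 652 and 572 in Mut_Met, and 491, 333 and 360.4 in Mut_Met_37C. CHR3-1199 had 184, 157 and 148 FPKM in WT_Met, 108, 92.4 and 69.5 in Mut_Met, and 96.9, 70.2 and 74.8 in Mut_Met_37C. CHR3-1223 had 31.3, 29.2 and 26.6 FPKM in WT_Met, 16.0, 13.8 and 19.8 in Mut_Met, and 14.7, 14.4 and 11.6 in Mut_Met_37C. WT_Met was apart from both mutant groups in all 3 genes, and the mutant groups overlapped each other in CHR3-1199 and CHR3-1223. Against WT_Met, the mutant at 37 °C stood at -1.53 for CHR3-1205 (SE 0.13, limma adjusted p = 1.6e-05), -1.01 for CHR3-1199 (SE 0.13, limma adjusted p = 1.4e-04) and -1.05 for CHR3-1223 (SE 0.11, limma adjusted p = 4.1e-05). The calls of CHR3-1199 and CHR3-1223 rest on values close to the required fold and ended at -0.92 and -0.99 without the first WT_Met library. CHR3-1199 gave -0.92 without the second Mut_Met_37C library and -0.97 without the third one, and CHR3-1223 gave -0.95 without the third one. With summed-read scaling neither was called, at -0.57 for CHR3-1199 and -0.62 for CHR3-1223.

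Counted over the stretch, the comparison of temperatures within the mutant called 11 of 48 genes tested (22.9%), against 11.0% of all tested genes. Those that rose were 6, against 3.96% of all genes (CHR3-1203, CHR3-1217, CHR3-1230, CHR3-1236, CHR3-1237 and CHR3-1238), and those that fell were 5, against 7.05% of all genes (CHR3-1213, CHR3-1214, CHR3-1215, CHR3-1219 and CHR3-1226). The median log2 fold change was 0.064, against -0.025 over all genes, and 37 of the 48 genes (77.1%) had groups that did not overlap, against 73.5% of all genes. This comparison shares the Mut_Met libraries with the one that chose the stretch, so that a level high or low in those libraries enters both with opposite sign. With summed-read scaling 16 genes were called, 12 higher and 4 lower, and 10 of the 11 were among them. The share called over all genes was then 14.1%, and 77.4% of those calls were higher.

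Mut_Met_37C against WT_Met, where strain and temperature both differ, called 11 of 49 genes (22.4%), against 12.3% of all tested genes. This comparison shares the WT_Met libraries with the one that chose the stretch, so its share is also a description. The 2 higher genes were CHR3-1212 and CHR3-1217, against 3.83% of all genes, and the other 9 were lower, against 8.48%. Groups did not overlap in 39 of the 49 genes (79.6%), against 75.8% of all genes. The median log2 fold change was -0.22, against -0.033 over all genes, and it was 0.25 with summed-read scaling, where 5 genes were called higher and 6 lower. Of these 11, 8 were the same genes as with the deposited scaling, and the share called over all genes was 15.9%. Set side by side, 4 genes called lower in Mut_Met were called higher from 28 to 37 °C and not called against WT_Met, namely CHR3-1203, CHR3-1236, CHR3-1237 and CHR3-1238. Another 3 (CHR3-1225, CHR3-1228 and CHR3-1234) were called lower in both mutant groups against WT_Met and not called between the temperatures. CHR3-1213 was the 1 gene called in all 3 comparisons with a change of direction, and CHR3-1226 the 1 called lower in all 3. The comparisons share libraries in pairs, so these patterns are a description.

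The genes outside the 20 described one by one were called in no comparison. They number 30, including CHR3-1242 and CHR3-1204. CHR3-1204 had 2, 1 and 0 reads in WT_Met and 0 in all 6 mutant libraries, where 3 reads would correspond to 2.27 to 3.52 FPKM, so no fold is given. In the run from CHR3-1190 to CHR3-1202, which holds 12 of the 30 and CHR3-1199, log2 fold changes from 28 to 37 °C ranged from -0.80 to 0.62 and those against WT_Met at 37 °C from -1.01 to 0.72. An adjusted p under 0.05 with no limit on the fold was reached by 35 of the 48 genes between the temperatures, 19 higher and 16 lower, and 69.4% of all tested genes reached it, 33.2% higher and 36.2% lower. Against WT_Met at 37 °C, 40 of the 49 reached it, 15 higher and 25 lower, as did 72.3% of all tested genes, 33.1% higher and 39.1% lower. These directions depend on the scaling. With summed reads, 12 genes of the stretch changed sign between the temperatures and 13 against WT_Met at 37 °C. Whatever the adjusted p, 37 genes were then higher and 11 lower between the temperatures, and 32 higher and 16 lower against WT_Met. Between the strains 38 of the 49 had an adjusted p under 0.05, 15 higher and 23 lower, beside 66.3% of all genes, 29.6% higher and 36.7% lower. Because the strain difference chose the stretch, nothing is read from this last count.

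Other stretches of tags were set beside this one as a description. The 50 tags just before it on chromosome 3 had 2 genes called between the strains, and the high-numbered ends of chromosomes 1, 2 and 4 had 3 of 54 tested, 2 of 55 and 3 of 53. Between the temperatures, 6 of the 50 tags before it were called, and 10 of 56, 10 of 55 and 8 of 54 at the other ends, which is 17.9%, 18.2% and 14.8%. Against WT_Met at 37 °C the counts were 10 of 50, 14 of 56, 9 of 56 and 8 of 54, so that the end of chromosome 1 had a larger share than the 22.4% of the chromosome 3 stretch. No test of these differences was made.

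**Figure D4:**
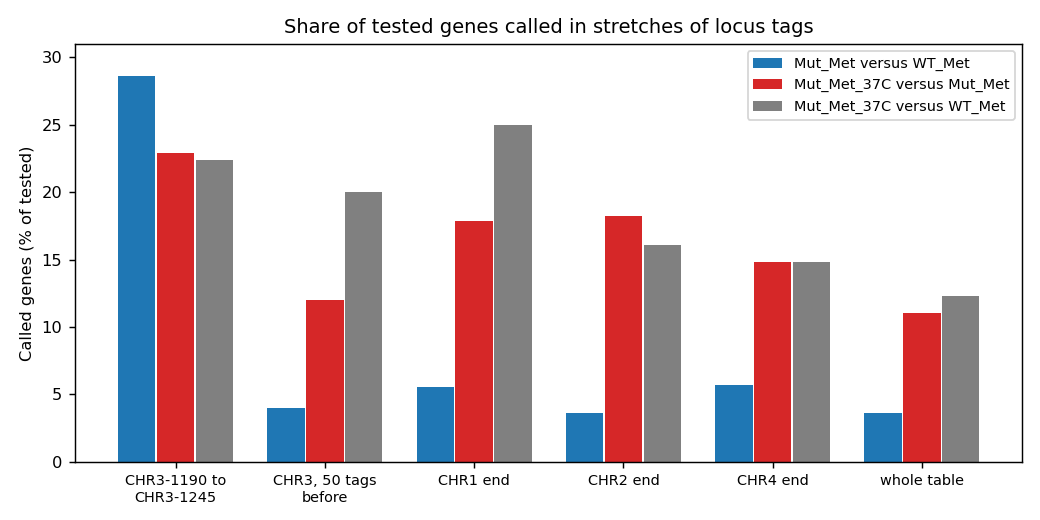
Share of tested genes called by limma in the stretch, in the 50 tags before it, at the high-numbered ends of the other chromosomes and in the whole table. The stretch was chosen on the comparison of Mut_Met with WT_Met (28.6% against 3.58% of all genes). Its shares in the other comparisons, 22.9% and 22.4%, are not independent of that choice, since they reuse the Mut_Met or the WT_Met libraries.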

How the data were processed

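The authors had libraries made, sequenced and aligned by a company. The submitters' processing notes name CASAVA, HISAT2 2.0.5 and featureCounts 1.5.0-p3, while annotation version and normalization are not given in the sources used here. The authors deposited one table with 1 value per gene and library, and its unit, FPKM, was inferred from the values. The step between low values gave the length and whole reads of 5516 of 5516 features above 0, within 0.02 of a read. FPKM are not counts, so limma 3.58.1 (R 4.3.3, lmFit, eBayes with trend) was fitted on log2(FPKM + 1) with the 2 groups compared. Every feature that averaged 1 FPKM or more in one group was tested, with Benjamini-Hochberg adjustment over all of them. The procedure was tested on simulated data. Intervals are at 95%, and limits from 3 reads cover counting error only. Reads were recovered, scaled and plotted in Python 3.11.15 with scipy 1.17.1, pandas 2.3.3, matplotlib 3.10.9 and numpy 2.4.6.

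Genes were named one by one when called in a comparison and averaging 5 FPKM or more in a group, together with the ends of the stretch and their neighbours. The genes and lists were chosen with earlier results of these data known. The dense part of a chromosome ended where 10 gaps in a row between tag numbers exceeded 3. The study describes biological replicates. Same-numbered libraries did not steadily deviate together, with correlations of -0.138 to 0.249, so no block was used. Settings tried as alternatives were the pseudocount, the filter, the scaling, the fit, limma-voom on the recovered reads, a block and leaving out each library.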

Additional observations from a re-analysis of the deposited data

How the results depend on the processing

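The direction and call of the named genes held under a pseudocount of 0.1, other filters (none, or a mean FPKM of 5), all 3 groups in one fit and no intensity trend. Scaling to summed reads turned the direction of CHR3-1199 and CHR3-1223 from 28 to 37 °C (0.24 and 0.11) and of CHR3-1229 and CHR3-1238 against WT_Met (0.13 and 0.03). It moved the median log2 fold change of the stretch to -0.097 between the strains, 0.45 between the temperatures and 0.25 for Mut_Met_37C against WT_Met. The share of higher genes among those called went from 54.5 to 75.0% between the temperatures (35.9 to 77.4% over all genes) and from 18.2 to 45.5% against WT_Met (31.1 to 77.0% over all genes). Limma-voom on the recovered reads gave medians of 0.11 and -0.16 for the comparisons with Mut_Met_37C. The cause was not tested. An adjusted p alone called 38, 35 and 40 genes of the stretch, in the order used above. With each replicate left out, 14 to 15, 10 to 12 and 9 to 11 genes were called, and the medians ranged from -0.21 to -0.13, from 0.015 (without the third Mut_Met_37C library; 0.021 without the second Mut_Met library) to 0.086, and from -0.24 to -0.16. CHR3-1199 reached -1.01 and the call between the strains without the first Mut_Met library. CHR3-1199 lost its call against WT_Met with median centring (-0.99) and limma-voom (-0.96), and CHR3-1229 gained one between the temperatures with summed-read scaling (1.19). Genes with few reads, such as CHR3-1212 and CHR3-1204, are limited by depth.

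With the replicate number as a block, 14, 11 and 11 genes were called and the medians were -0.20, 0.064 and -0.22, so that the block changed no call. Deviations of same-numbered libraries correlated at 0.0261 to 0.0828 between the strains, -0.138 to 0.249 between the temperatures and -0.0211 to 0.124 for Mut_Met_37C against WT_Met. In these comparisons 4, 3 and 2 of 6 libraries were closest to the library of their own number.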
